A study of Mus musculus with 8 samples.

Results

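The genes described here are 9 genes of plasminogen activation at the cell surface: *Plau*, *Plat*, *Plaur*, *Serpine2*, *Serpinb2*, *Serpinb5*, *Serpinf1*, *St14* and *Spint1*. They were chosen by symbol for their roles, with earlier results of these data known. All 9 were found by Ensembl identifier among the 16341 genes counted. Of these, 8 had enough reads to be tested, together with 11717 genes in all, and *Serpinf1* did not. The cells were 4T1, a line derived from a mouse mammary carcinoma, and RNA was sequenced in 4 libraries of the 4T1-Sca1+ and 4 of the 4T1-Sca1- fraction. The fractions were separated on magnetic columns by antibody staining of SCA1, the product of *Ly6a* at the cell surface. No other treatment, genotype or time distinguishes the groups in the labels, and both carry a gate for cells without the leukocyte antigen CD45. The source label and the text of the study give cells of the parental line as the origin, although the protocol label speaks of tumor. Nothing in the labels says that the numbered replicates were separate sorts, and p-values therefore measure the spread between these libraries, which may be technical.

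Plasminogen circulates as an inactive precursor and is cut to plasmin, a protease of fibrin and matrix, by the urokinase-type activator (uPA, encoded by *Plau*) and the tissue-type activator (tPA, *Plat*). uPA is held on the cell surface by its receptor uPAR (*Plaur*). Serpins are inhibitors that trap serine proteases. PAI-2 (*Serpinb2*) and protease nexin-1 (*Serpine2*) act on the activators, while maspin (*Serpinb5*) and PEDF (*Serpinf1*) belong to the serpin family by structure but do not trap proteases in this way. Matriptase (*St14*) is a membrane serine protease of epithelia that can activate pro-uPA, and HAI-1 (*Spint1*) is its membrane-bound Kunitz inhibitor. In breast cancer the uPA protein is an established marker of tumor aggressiveness.

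The libraries held between 13561804 and 16968215 counts. *Ly6a*, which checks the labels, had 145 to 193 normalized counts in 4T1-Sca1+ libraries and 0 to 4.11 in 4T1-Sca1- libraries, so each library matched its label. A normalized count is the read count of a gene divided by the size factor of its library. The epithelial identity of the cells was also examined, and all 7 epithelial markers were tested and expressed, with summed normalized counts of 57678 to 63159 in 4T1-Sca1+ and 59162 to 63896 in 4T1-Sca1- libraries (2 markers higher and 3 lower in the 4T1-Sca1+ fraction). At an adjusted p under 0.05 (edgeR quasi-likelihood test, Benjamini-Hochberg over all genes tested), 61.5% of the genes tested differed between the fractions, 31.3% being higher and 30.2% lower in 4T1-Sca1+ cells. Against that background, 6 of the 8 genes tested differed, of which 4 were higher (*Plat*, *Spint1*, *Serpine2*, *Plaur*) and 2 were lower (*Serpinb2*, *St14*). For these 6 the groups did not overlap, as was the case for 54.7% of all genes tested. At a log2 fold change of at least 1 in size, 2 of the 8 genes passed (*Plat* and *Serpinb2*), against 6.1% of all genes tested. The median log2 fold change was 0.20 over 8 genes and 0.0074 over all genes tested. The members were thus called at close to the rate of other genes, and the description below concerns the individual genes. In these bulk samples, fewer cells expressing a gene and less RNA per cell cannot be told apart.

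The promoter sequences of the gene with the largest difference, *Serpinb2*, and of 3 genes that were higher together, *Plaur*, *Serpine2* and *Spint1*, are shown to let the reader compare their make-up. RefSeq windows (GRCm38.p6) were found for 6 of the 9 genes, and those of *Plau*, *Plat* and *St14* were not used here. Each is the 250 bases before the RefSeq start site, 5′ to 3′ on the strand of the gene, with capitals marking any of 3 letter patterns searched on both strands (TGANTCA, the pattern bound by AP-1 factors; TATAAA, the TATA box; and GGGCGG, the GC box, overlapping copies included). For *Serpinb2*, whose table has a pair of start sites, the upstream one is shown. The *Serpine2* window lies inside the gene span given for it below, which comes from another annotation and starts further upstream.
Serpinb2 (chr1:107511173-107511422, plus strand): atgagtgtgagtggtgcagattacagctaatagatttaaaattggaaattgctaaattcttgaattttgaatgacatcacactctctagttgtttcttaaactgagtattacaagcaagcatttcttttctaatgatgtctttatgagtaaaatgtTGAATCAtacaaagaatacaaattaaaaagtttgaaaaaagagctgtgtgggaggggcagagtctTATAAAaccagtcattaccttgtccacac
Plaur (chr7:24462233-24462482, plus strand): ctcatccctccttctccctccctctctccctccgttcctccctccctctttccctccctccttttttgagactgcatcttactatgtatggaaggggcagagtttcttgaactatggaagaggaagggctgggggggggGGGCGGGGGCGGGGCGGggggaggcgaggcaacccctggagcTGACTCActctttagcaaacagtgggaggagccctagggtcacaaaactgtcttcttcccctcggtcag
Serpine2 (chr1:79858666-79858915, minus strand): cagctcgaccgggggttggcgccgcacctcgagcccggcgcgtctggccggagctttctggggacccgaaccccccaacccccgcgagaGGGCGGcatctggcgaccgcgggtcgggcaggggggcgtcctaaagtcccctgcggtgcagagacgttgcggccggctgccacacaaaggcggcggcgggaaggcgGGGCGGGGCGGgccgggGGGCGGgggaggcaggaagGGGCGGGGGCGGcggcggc
Spint1 (chr2:119237110-119237359, plus strand): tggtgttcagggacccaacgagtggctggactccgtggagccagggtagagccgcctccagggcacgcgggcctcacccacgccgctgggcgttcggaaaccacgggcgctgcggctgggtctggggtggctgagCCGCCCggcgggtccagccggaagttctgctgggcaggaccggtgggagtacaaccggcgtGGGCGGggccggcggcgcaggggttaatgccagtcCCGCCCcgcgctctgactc
The *Serpinb2* window was poor in G and C (32.4%) and held 1 TGANTCA and 1 TATAAA, beginning 94 and 29 bases before the start, and 0 GGGCGG. The other windows shown were rich in G and C, with 59.6% for *Plaur*, 72.8% for *Spint1* and 78.8% for *Serpine2*. They held 3, 3 and 6 copies of GGGCGG, respectively, and 0 copies of TATAAA. *Plaur* also had 1 TGANTCA, 69 bases before the start. *Spint1* had 1 that ran across the start site and so is cut off in the window printed. The windows of *Serpinf1* and *Serpinb5*, which are not printed, had 51.6% and 58.8% G and C. That of *Serpinf1* held 0 copies of all 3 patterns. That of *Serpinb5*, a gene that did not pass, held 1 GGGCGG, 1 TGANTCA and 0 TATAAA. Of 32851 windows of this length in the table, 6.75% held TGANTCA, 12.4% held TATAAA and 32.7% held GGGCGG. These matches describe the letters, and binding was not measured.

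To examine the plasminogen activators, uPA and tPA were compared first. *Plau* (ENSMUSG00000021822; chr14:20836660-20843385, plus strand in GRCm38) had 4180, 3966, 3782 and 3680.1 normalized counts in the 4 4T1-Sca1+ libraries and 4397, 3887, 4306 and 4456 in the 4 4T1-Sca1- libraries. The groups overlapped, since 1 4T1-Sca1- library lay within the 4T1-Sca1+ range. The log2 fold change (4T1-Sca1+ against 4T1-Sca1-) was -0.11 ± 0.05 (standard error), with an unadjusted 95% interval of -0.23 to -0.0025 and an adjusted p of 0.0709 by edgeR, and did not pass. Any difference in *Plau* was therefore small. It passed when 4T1-Sca1+ replicate 1 was left out (-0.15) and when 4T1-Sca1- replicate 2 was left out (-0.16).

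*Plat* (ENSMUSG00000031538; chr8:22757727-22782844, plus strand) had 453, 489, 494 and 515 normalized counts in 4T1-Sca1+ libraries and 226, 213, 226 and 219 in 4T1-Sca1- libraries. Every 4T1-Sca1+ library was above every 4T1-Sca1- library. tPA mRNA was thus 2.23-fold higher, with a log2 fold change of 1.155 ± 0.07 (adjusted p 1.65e-10, edgeR). *Plat* therefore rose, while *Plau* did not pass. By level per length, *Plau* remained the main activator transcript in both fractions, with 109 ± 6.30 RPKM against 5.17 ± 0.269 RPKM of *Plat* in 4T1-Sca1+ cells and 118 ± 7.31 against 2.32 ± 0.0729 in 4T1-Sca1- cells (SD, n = 4). RPKM, computed here from the counts, scales reads to exon length and library size.

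**Figure D1:**
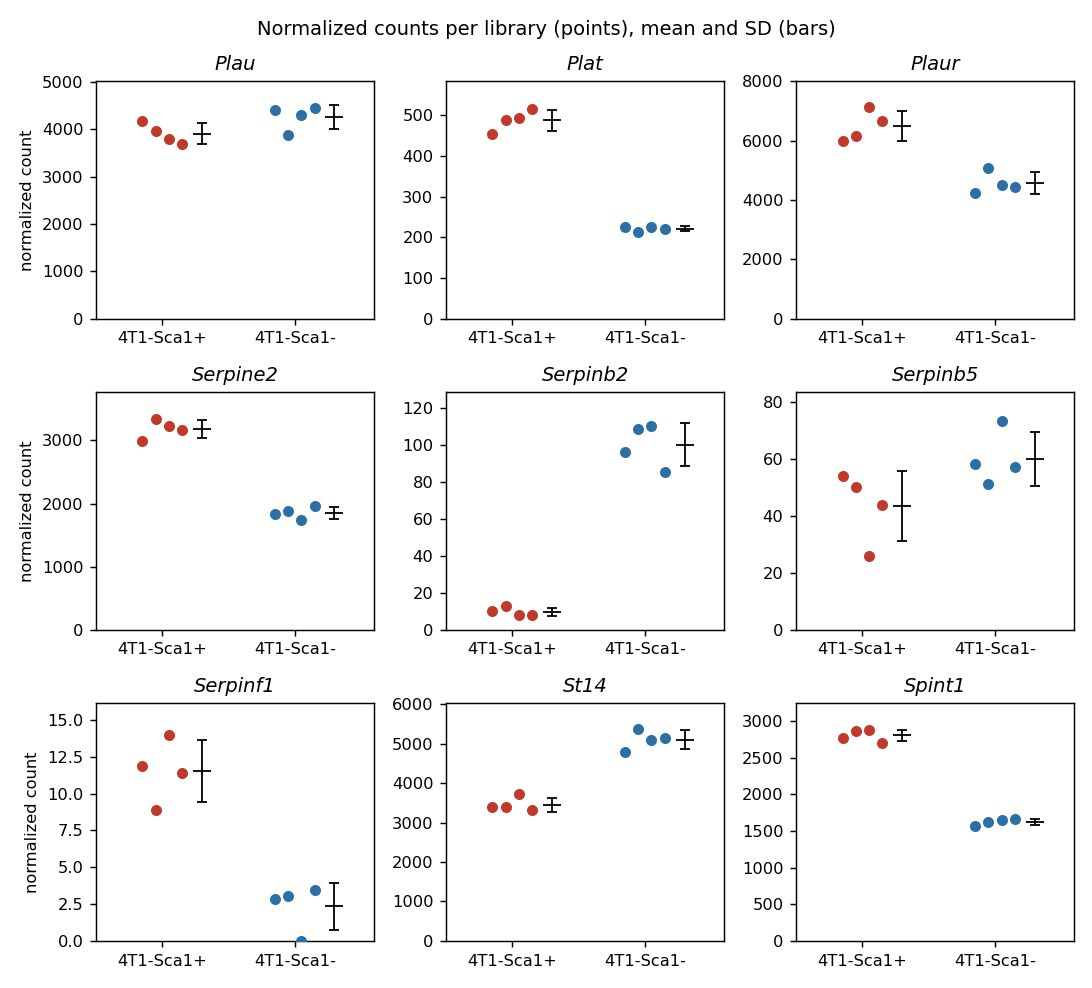
Normalized count of each of the 9 genes (vertical axis, from 0) in the 4 4T1-Sca1+ (red) and 4 4T1-Sca1- (blue) libraries, with mean and SD as black bars. The colors do not overlap in height for Plat, Plaur, Serpine2, Serpinb2, Serpinf1, St14 and Spint1, and they do for Plau and Serpinb5.

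The receptor was examined next. *Plaur* (ENSMUSG00000046223; chr7:24462484-24475968, plus strand) had 5994, 6173, 7138 and 6654 normalized counts in 4T1-Sca1+ libraries and 4236, 5085, 4509 and 4450.5 in 4T1-Sca1- libraries. The lowest 4T1-Sca1+ library was above the highest 4T1-Sca1- library. uPAR mRNA was 1.43-fold higher (log2 fold change 0.52 ± 0.06, adjusted p 8.53e-07, edgeR). With 164 ± 12.6 RPKM it had the highest level of the 9 genes in 4T1-Sca1+ cells, above *Plau*. In 4T1-Sca1- cells, *Plaur* (114 ± 8.88 RPKM) and *Plau* overlapped in range, so that their order there is not settled.

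The inhibitors of the activators moved in opposite directions. *Serpine2* (ENSMUSG00000026249; chr1:79794197-79861180, minus strand) had 2991, 3342, 3230 and 3166 normalized counts in 4T1-Sca1+ libraries and 1836, 1883, 1733 and 1954 in 4T1-Sca1- libraries. All 4T1-Sca1+ libraries were higher. Protease nexin-1 mRNA was 1.73-fold higher, with a log2 fold change of 0.79 ± 0.05 (adjusted p 3.3e-10, edgeR).

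*Serpinb2* (ENSMUSG00000062345; chr1:107511423-107535478, plus strand) showed the largest difference of the 8 genes tested. It had 10.1, 12.8, 7.98 and 7.88 normalized counts in 4T1-Sca1+ libraries and 96.5, 109, 110.2 and 85.6 in 4T1-Sca1- libraries. PAI-2 mRNA was therefore near the detection limit in one fraction and low but clear in the other. The fitted log2 fold change was -3.35 ± 0.19 (adjusted p 9.08e-11, edgeR), or 10.2-fold lower in 4T1-Sca1+ cells. From the summed reads, 41 against 381, the 4T1-Sca1- to 4T1-Sca1+ ratio per library size was 10.3, with an exact 95% interval of 7.47 to 14.6 that covers counting error only. The gene passed the filter on low counts through the 4T1-Sca1- libraries. *Serpinb10* overlaps it on the same strand and had 1 read in all in the 4T1-Sca1+ fraction and 2 in the other. *Serpinb2* is one of the genes the study picked for its SCA1-negative signature on these libraries, and its direction is not independent evidence.

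Inhibitors that also act on plasmin were compared next. *Serping1*, which encodes the C1 inhibitor, was scarce and higher in 4T1-Sca1+ cells at 27.1 ± 1.39 against 9.74 ± 3.87 normalized counts, with a log2 fold change of 1.47 ± 0.26. It passed the filter on low counts through the 4T1-Sca1+ libraries. *Serpinf2*, which encodes the direct plasmin inhibitor α2-antiplasmin, had 15 and 18 reads over the 4 libraries of each fraction, too few to be tested. *Plg*, the plasminogen gene, was not found by symbol among the genes counted and so was not analysed here.

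**Figure D2:**
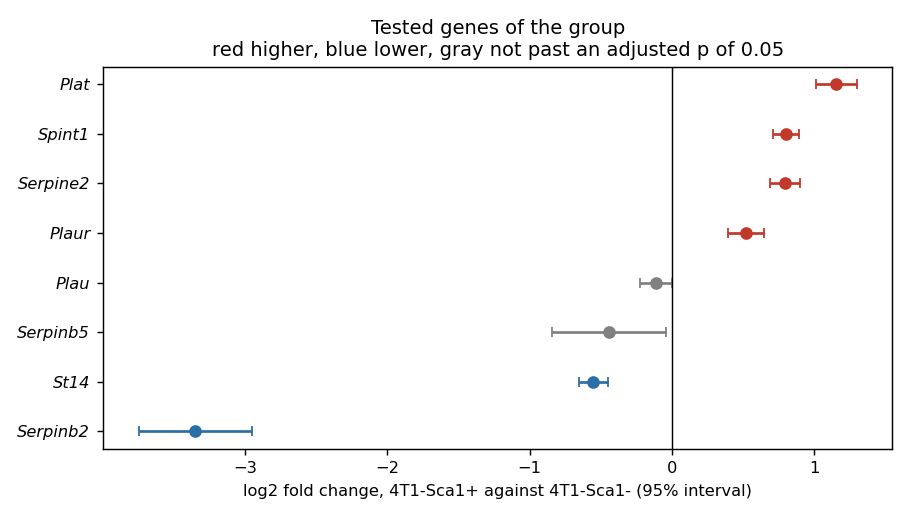
Log2 fold change of the 8 tested genes between 4T1-Sca1+ and 4T1-Sca1- cells (points) with 95% intervals (bars), colored by call. Plat (1.155), Spint1 (0.80), Serpine2 (0.79) and Plaur (0.52) lie to the right of 0, St14 (-0.55) and Serpinb2 (-3.35) lie to the left, and the gray intervals of Plau and Serpinb5 end close to 0.

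The serpins that do not trap proteases were both scarce. *Serpinb5* (ENSMUSG00000067006; chr1:106861173-106883348, plus strand) had 53.9, 50.3, 25.9 and 43.8 normalized counts in 4T1-Sca1+ libraries and 58.3, 51.3, 73.5 and 57.1 in 4T1-Sca1- libraries. The groups overlapped. The log2 fold change of maspin was -0.44 ± 0.19 (unadjusted 95% interval -0.84 to -0.039, adjusted p 0.0536, edgeR), and it did not pass. It passed without 4T1-Sca1+ replicate 1 (-0.56), without 4T1-Sca1+ replicate 2 (-0.51) and without 4T1-Sca1- replicate 2 (-0.52), and was -0.27 without 4T1-Sca1+ replicate 3, which held the lowest value.

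*Serpinf1* (ENSMUSG00000000753; chr11:75409769-75422701, minus strand) had 11.9, 8.88, 14.0 and 11.4 normalized counts in 4T1-Sca1+ libraries and 2.87, 3.08, 0 and 3.42 in 4T1-Sca1- libraries. The 4T1-Sca1- libraries, with at most 3 reads each, were at the floor. Over all libraries of a fraction, 49 and 9 reads were seen, a ratio of 4.90 per library size with an exact 95% interval of 2.38 to 11.4 for counting error only. Without the filter on low counts its log2 fold change was 2.22 ± 0.50 (adjusted p 0.000138, edgeR). PEDF is abundantly made by fibroblasts, so their markers are given beside this value. Of 10 fibroblast markers, 8 were analysed and 4 tested, of which 3 were higher in 4T1-Sca1+ cells and 0 lower. Their summed normalized counts were 3101 to 3320.3 in 4T1-Sca1+ and 2282 to 2637 in 4T1-Sca1- libraries, most of it *Sparc*. The fibroblast markers did not move as one. *Pdgfra* was higher (log2 fold change 0.63 ± 0.07, 2378 and 1381 reads in all), as was *Col1a1* (0.75 ± 0.19, 204 and 109 reads), and *Dcn*, which was not tested, had 49 and 4 reads. *Col1a2* had 19 and 18 reads, with at most 8 in any library. *Postn* was tested and did not pass (0.052 ± 0.24, 106 and 92 reads). *Pdgfrb*, with 27 and 1 reads, and *Fap*, which went the other way with 4 and 11, were not tested. With DESeq2, which also tests scarcer genes, 5 fibroblast markers and 1 endothelial marker were called higher. Endothelial cells are a known source of tPA. Of 9 endothelial markers, 7 were analysed and 2 tested, with 0 higher and 1 lower, and their summed normalized counts were 147 to 187.5 and 145 to 186, respectively. *Pecam1* had 21 and 4 reads in all, with at most 7 in any library. Others of the list went the other way, with 3 and 7 reads of *Cdh5* and 24 and 32 of *Esam*. The marker called lower was *Tie1* (-0.60 ± 0.19, 108 and 147 reads), and *Egfl7* did not pass (0.17 ± 0.12). Of 18 leukocyte markers, 13 were analysed and 4 were tested and higher (summed normalized counts 422 to 481 against 236 to 277), while 8 had at most 10 reads in every library. The 4 that rose were *S100a8*, a neutrophil gene, *Csf1r*, *Cd74* and *Cd68*. Their log2 fold changes were 2.38 ± 0.27 (164 and 28 reads in all), 1.18 ± 0.20 (169 and 67), 0.94 ± 0.13 (531 and 249) and 0.65 ± 0.09 (1005 and 577), respectively. *S100a8* passed the filter on low counts through the 4T1-Sca1+ libraries. Among the markers too scarce to be tested, *Itgam* had 10 and 11 reads in all and *Fcer1g* 10 and 2. *S100a9* had 3 and 1 reads and *Lyz2* 0 and 1, and *Ly6g* was not analysed. *Ptprc*, which encodes CD45, had 10 and 2 reads in all, at most 4 in any library, and its groups did not overlap. The part of such cells in the differences of *Serpinf1*, *Plat* and *Plaur* was not tested.

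To compare the epithelial protease with its inhibitor, *St14* and *Spint1* were set side by side. *St14* (ENSMUSG00000031995; chr9:31089402-31131853, minus strand) had 3386, 3389, 3722 and 3320.4 normalized counts in 4T1-Sca1+ libraries and 4799, 5375, 5095 and 5152 in 4T1-Sca1- libraries. All 4T1-Sca1+ libraries were lower. Matriptase mRNA was 1.46-fold lower (log2 fold change -0.55 ± 0.05, adjusted p 3.06e-08, edgeR). *Spint1* (ENSMUSG00000027315; chr2:119237362-119249527, plus strand) had 2776, 2862, 2878 and 2709 normalized counts in 4T1-Sca1+ libraries and 1570.0, 1618, 1656 and 1659 in 4T1-Sca1- libraries. Every 4T1-Sca1+ library was above the highest 4T1-Sca1- library, and HAI-1 mRNA was 1.74-fold higher (log2 fold change 0.80 ± 0.04, adjusted p 6.41e-11, edgeR). The enzyme and its inhibitor therefore moved in opposite directions. *Spint2*, which encodes the related inhibitor HAI-2, was abundant and had a log2 fold change of -0.046 ± 0.047 (95% interval -0.15 to 0.054). It passed without 4T1-Sca1+ replicate 3 (-0.094).

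Ratios between genes within a library do not depend on how libraries are scaled, and were used to express these opposing differences. The log2 ratio of *St14* to *Spint1* RPKM was -1.22 to -1.09 in 4T1-Sca1+ libraries and 0.15 to 0.27 in 4T1-Sca1- libraries, a difference of means of -1.35. The log2 ratio of *Plau* to *Plaur* was -0.77 to -0.38 and -0.24 to 0.20, respectively, a difference of -0.63. For *Plau* to *Serpine2* the log2 ratio was 2.02 to 2.29 against 2.85 to 3.12, with a difference of -0.91. None of these ranges overlapped between the fractions. Since they restate the genes above, no test was applied. The ratio within 1 fraction, but not the difference between fractions, depends on the gene length used. With the longest transcript in place of all exons, the mean log2 ratio of *St14* to *Spint1* became -0.31 and 1.04, and that of *Plau* to *Plaur* in 4T1-Sca1- cells changed from 0.045 to -0.32.

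**Figure D3:**
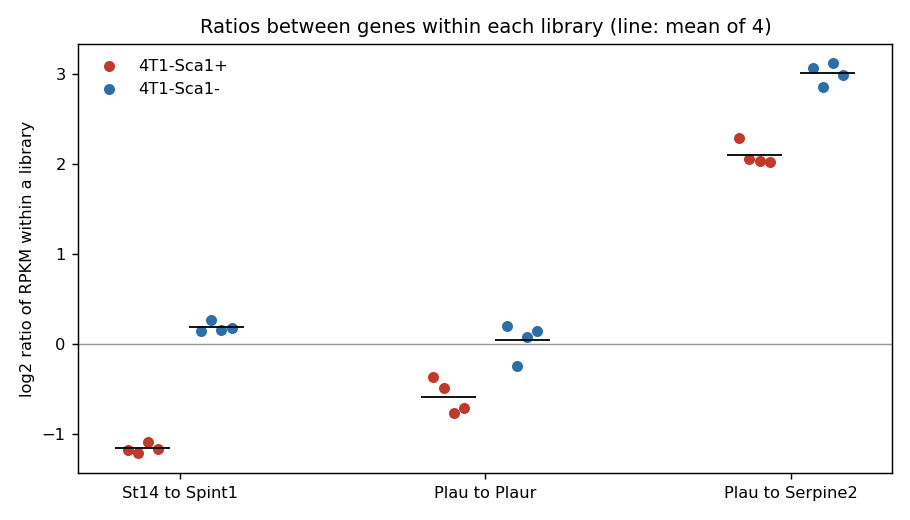
Log2 ratio of RPKM between a pair of genes (vertical axis) within each of the 4 4T1-Sca1+ (red) and 4 4T1-Sca1- (blue) libraries, with the mean as a line. For each of the 3 ratios the colors are separate, and St14 to Spint1 has the widest gap, with a difference of means of -1.35.

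By level per length, the 9 genes spanned from 164 RPKM (*Plaur*) to 0.273 RPKM (*Serpinb2*) in 4T1-Sca1+ cells. The order there was *Plaur*, *Plau*, *Spint1* (67.0), *St14* (29.9), *Serpine2* (25.4), *Plat* (5.17), *Serpinb5* (1.046), *Serpinf1* (0.323) and *Serpinb2*, where only the last pair overlapped in range. In 4T1-Sca1- cells it was *Plau*, *Plaur*, *St14* (43.8), *Spint1* (38.5), *Serpine2* (14.6), *Serpinb2* (2.80), *Plat* (2.32), *Serpinb5* (1.43) and *Serpinf1* (0.065), and only *Plau* and *Plaur* overlapped. *St14* and *Spint1* exchanged places between the fractions, and *Serpinb2* was the 9th gene in one and the 6th in the other. The 6th place depends on the length used. By longest transcript, *Plat* (3.58 RPKM) lay above *Serpinb2* (3.29 RPKM) in 4T1-Sca1- cells. The total exon length of *St14* (7637 bases) and *Serpine2* (8287 bases) is over 2 times that of their longest transcripts (3550.0 and 3393 bases), so their levels are understated relative to the other genes if the longest transcript is the main one.

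**Figure D4:**
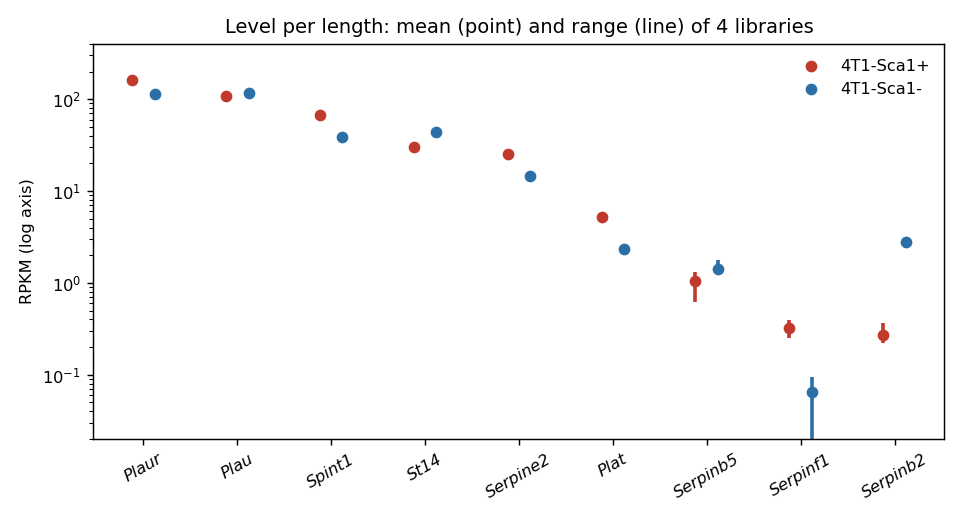
Level per exon length (RPKM, log axis) of the 9 genes in 4T1-Sca1+ (red) and 4T1-Sca1- (blue) cells, as mean (point) and range (line) of 4 libraries, ordered by the 4T1-Sca1+ mean. Plaur and Plau lie highest in both, and Serpinb2 shows the widest gap between colors, at 0.273 against 2.80 RPKM; the line of Serpinf1 in 4T1-Sca1- cells runs off the axis because 1 library was at 0.

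The other genes of the pathway were compared by role. Of 67 genes in 7 lists that are not among the 9, 55 were analysed and 32 tested. Of these, 11 were higher and 14 lower, with a median log2 fold change of -0.038. Over all genes tested, 31.3% were higher and 30.2% lower, and the list counts below are to be read against those shares. Counts for the lists below include the members they hold. Of 3 tested activators and contact proteases, 2 were higher, *Plat* and *F12*, which encodes coagulation factor XII, and 0 were lower. *F12* was scarce, with 84 and 40 reads in all, and its groups overlapped (0.91 ± 0.36, adjusted p 0.0346, edgeR). It passed the filter on low counts through the 4T1-Sca1+ libraries. Its call was lost when GC content was corrected for (0.73), with DESeq2 (0.92) and on leaving out 4T1-Sca1+ replicate 4 (0.70), 4T1-Sca1- replicate 2 (0.68) or 4T1-Sca1- replicate 4 (0.69), and it was not tested with at least 10 counts in every library. Of 8 tested receptors and surface docking proteins of plasminogen and its activators, 3 were higher and 4 lower. *S100a10* and *Anxa2*, whose products form the annexin A2 complex that docks tPA and plasminogen, were lower (-0.54 ± 0.04 and -0.19 ± 0.04), as was the plasminogen receptor *Plgrkt* (-0.52 ± 0.10). *Sorl1*, an endocytic receptor that takes up uPA, was higher (0.82 ± 0.06), and *Lrp1*, a clearance receptor of activators bound by serpins, did not pass (0.076 ± 0.055). With GC-corrected offsets *Lrp1* had the opposite sign and passed (-0.093). *Anxa2* and *S100a10* have related copies in the genome, and how shared reads were counted is not given in the sources used here.

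Among 6 tested surface and secreted serine proteases, 4 passed as lower and 1 as higher in the 4T1-Sca1+ fraction, with a median of -0.68. With DESeq2, which tests more of the scarce genes, 3 were called higher and 4 lower, so that the balance depends on the fit. *Prss23*, which encodes a secreted protease (-1.18 ± 0.07), and *Tmprss11e*, a type II transmembrane protease of the same broad class as matriptase (-0.81 ± 0.05), were lower along with *St14*. *Prss22* was higher (0.41 ± 0.06, and 0.25 with GC-corrected offsets). *Prss8*, which encodes prostasin, a partner of matriptase in epithelia, did not pass (0.11 ± 0.10). *Prss23* and *Tmprss11e* were also picked by the study for its SCA1-negative signature. Of 5 tested Kunitz-type inhibitors, *Spint1* alone was higher and 2 were lower, *Aplp2* (-0.24 ± 0.04) and *App* (-0.19 ± 0.04). Both encode precursor proteins of which forms with a Kunitz domain exist.

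Of 8 tested growth factors, receptors and surface proteins acted on by these proteases or lying downstream of them, 4 were higher and 3 lower. *Pdgfc* (0.42 ± 0.08), a growth factor activated by tPA, was higher, as were *Tgfb1* (0.36 ± 0.07) and *Ltbp1* (0.29 ± 0.04), which encodes a protein that keeps latent TGF-β in the matrix. *Met*, the receptor of the hepatocyte growth factor that uPA and matriptase can activate, was lower (-0.44 ± 0.05), and so was *Egfr* (-0.52 ± 0.10). *F2rl1*, which encodes the matriptase target PAR2, was lower by -0.16 ± 0.05 (adjusted p 0.0177, edgeR), a call lost without 4T1-Sca1+ replicate 2 (-0.13), without 4T1-Sca1- replicate 2 (-0.12), with library totals alone (-0.11) and with upper-quartile factors (-0.13).

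**Figure D5:**
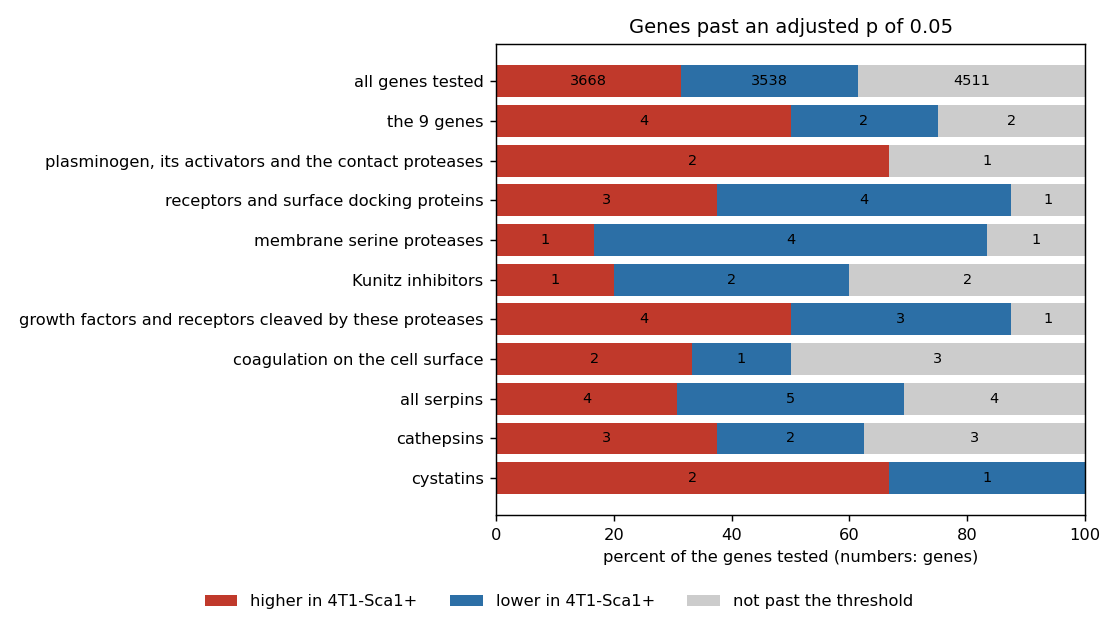
Share of tested genes (horizontal axis, percent) that were higher (red), lower (blue) or not past the threshold (gray) in 4T1-Sca1+ cells, for all genes tested, the 9 genes of this group (8 tested) and most of the lists, with numbers of genes in the bars. Of all genes tested, 3668 were higher and 3538 lower, and the lists are small, with 3 to 13 tested genes each.

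The serpin family as a whole had 36 counted genes, of which 13 were tested, with 4 higher and 5 lower and a median of -0.36. *Serpinb2* and *Serpinb5* lie in the same cluster on chromosome 1, where *Serpinb8* (-0.29 ± 0.27) did not pass and *Serpinb10* was near 0. A second cluster of the same clade, on chromosome 13, held *Serpinb6a* (-0.67 ± 0.06), *Serpinb6b* (-0.82 ± 0.08) and *Serpinb9* (-0.40 ± 0.10), inhibitors that act inside cells, which were all lower. *Serpinb9b* in the same cluster went the other way (0.49 ± 0.14), and was named after its value was seen. *Serpinb6b* is in the SCA1-negative signature of the study. *Serpinh1*, which encodes the collagen chaperone HSP47 and not an inhibitor, was the most abundant serpin transcript, with 284 ± 11.2 RPKM against 236 ± 8.50, and was higher by 0.27 ± 0.04, or 0.14 with GC-corrected offsets. Reads of family members with similar sequences may have been shared in counting.

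Genes with the most similar profile over the 8 libraries were sought for the pair with the largest differences. The measure was the root mean square difference of log2 CPM (reads scaled to library size), each gene centered on its own mean. The 9357 genes compared were tested, averaged at least 100 normalized counts and had no Gm or Rik model symbol. *Serpinb2* itself, with means of 9.68 and 100.3 in the fractions, lay below that minimum, so genes as scarce were not compared with it. For *Serpinb2*, the nearest were *Btn1a1* (0.405), *Atf3* (0.406), a stress-response transcription factor, and *Cxcl3* (0.519), a neutrophil chemokine of a family of similar genes. None of them had as large a difference as *Serpinb2*, with log2 fold changes of -2.46, -2.42 and -2.18, respectively. For *Plat* they were *Sema6d* (0.038), *Fendrr* (0.0397), a noncoding RNA, and *Stc1* (0.0597), with log2 fold changes of 1.21, 1.157 and 1.19.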

How the data were processed

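The data were RNA-Seq libraries of 4T1 cells, 4 from each SCA1 fraction. TruSeq kits and an Illumina sequencer were used. The submitters' processing notes name cutadapt 1.16 and STAR 2.5.3a with GRCm38 (mm10). The counting tool, annotation and use of strand are not given in the sources used here. The authors deposited raw counts for 16341 Ensembl genes and a normalized signal table of 15372 genes, which equalled the counts divided by DESeq2 size factors. Symbols, positions, exon lengths and GC content came from GENCODE M21 (GRCm38), which matched 16202 genes and not 139. Promoter sequences came from RefSeq (GRCm38.p6).

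Counts were tested with edgeR 4.0.16 in R 4.3.3 (filterByExpr, TMM, glmQLFit and glmQLFTest, two-sided, no covariate). Benjamini-Hochberg adjustment ran over 11717 genes, with 0.05 as threshold. The standard error was the absolute log2 fold change over the square root of F, and 95% intervals used the t quantile of the fit. A library with at most 3 counts was at the floor. Floors and count intervals (exact Clopper-Pearson) cover counting error only, since no molecular identifiers were used to separate PCR copies. Total counts were 13561804 to 16968215 per library.

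The genes and lists were chosen with earlier results of these data known. Named genes were the members, *Plg*, *Serpinf2*, the label check *Ly6a*, up to 3 highest and 3 lowest called genes per list whose normalized counts averaged 100 or more, all such serpins, and the 3 nearest profiles of the 2 tested members with the largest log2 fold changes. Where other genes are named, they complete a list or were chosen after their values were seen. An item covered by this rule is not reported here. Alternatives were DESeq2 1.42.0, limma 3.58.1 (voom, and log2 of the signal with a pseudocount of 1 or 0.5), other scalings, filters and thresholds, GC-corrected offsets, the replicate number as a block and leaving out each library. The fits were tested on simulated data.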

Additional observations from a re-analysis of the deposited data

Results flagged for a closer look

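In groups of 4 libraries, 1 library was set apart from the other 3 by Dixon's criterion in 9 of 90 group tests (45 genes), where about 1 in 20, or 4.5, is given by chance. Of these, 4 fell on 4T1-Sca1+ replicate 3. Among the genes of plasminogen activation, *Serpinf1* was at 0 normalized counts in 4T1-Sca1- replicate 3, against 2.87 to 3.42 in the other libraries of its group, a gap of 3 reads. *Tmprss11e* had 1379 in 4T1-Sca1+ replicate 3 (others 1526 to 1538) and 2813 in 4T1-Sca1- replicate 1 (others 2571 to 2605). *Tgfb1* had 2162 in 4T1-Sca1+ replicate 3 (others 1705 to 1780.0), *Cst3*, which encodes cystatin C, had 2791 there (others 2336 to 2376), and *Cd68* had 208 (others 243 to 249). *Ctsd*, which encodes cathepsin D, had 4289 in 4T1-Sca1- replicate 1 (others 4636 to 4695). In 4T1-Sca1- replicate 2, *Krt8* had 11677 (others 10841 to 10951) and *Serpinb6a* had 4200.3 (others 4629.7 to 4683). Without 4T1-Sca1+ replicate 3, 4 of the 9 genes of plasminogen activation were called higher and 2 lower, as with all libraries.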

How the results depend on the processing

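The calls of *Plat*, *Plaur*, *Serpine2*, *Serpinb2*, *St14* and *Spint1* held, with the same direction, in every alternative fit in which each was tested. *Plau* passed with DESeq2 size factors (-0.13), DESeq2 (-0.13) and no low-count filter (-0.13). *Serpinb5* passed with DESeq2 size factors (-0.45), limma-voom (-0.48) and no low-count filter (-0.45). Leaving out each library gave -0.16 to -0.088 for *Plau* and -0.56 to -0.27 for *Serpinb5*. Of the 9 genes, 4 were called lower with DESeq2 size factors and with no low-count filter, 1 with at least 10 counts in every library (by construction, as *Serpinb2* is then not tested), and 2 to 4 when each library was left out. *Serpinf1* was called in all 9 fits that tested it. Requiring a change of 1 or more on the log2 scale left, by construction, 1 of the 9 genes higher and 1 lower, 4 and 3 of the other pathway genes, and 612 and 103 of all genes tested. The cause was not tested elsewhere.

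A replicate block in the fit left 3605 genes higher and 3452 lower, 4 and 2 of them among the 9, and changed no call of these 9. Deviations of same-numbered libraries from their group means correlated at 0.22, -0.40, -0.12 and -0.0017, and libraries were not treated as pairs. Depth limits *Serpinf1*, *Serpinf2* and the size of the *Serpinb2* difference.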

Other observations

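Other extracellular and lysosomal proteases and their inhibitors were also compared. Of 8 tested cathepsins, 3 were higher and 2 lower in 4T1-Sca1+ cells, close to the 61.5% called among all genes tested. *Ctsa* (log2 fold change 0.32 ± 0.05) and *Ctsd* (0.30 ± 0.04), which encode lysosomal hydrolases, were higher, whereas *Ctsh* (-0.22 ± 0.04) and *Ctsz* (-0.20 ± 0.04) were lower. *Ctsl*, which encodes cathepsin L, was the most abundant of those measured by normalized count, at 25002 ± 1374 against 24685 ± 821, and did not pass (0.031 ± 0.046). Among cystatins, inhibitors of such cathepsins, *Cst3* (0.30 ± 0.06) and *Cstb* (0.24 ± 0.05) were higher and *Cst6* (-0.65 ± 0.09) was lower. With GC-corrected offsets, 5 cathepsins were higher, *Ctsl* among them (0.11), *Ctsd* was at 0.19, *Cst3* at 0.15 and *Ctsz* at -0.35.

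Of 6 tested genes of coagulation on the cell surface, 2 were higher and 1 was lower. *Procr*, the endothelial protein C receptor that also marks some mammary cells, was lower (-0.27 ± 0.05). The 2 higher genes, named after their values were seen, were *F13a1*, which encodes the fibrin cross-linking factor XIII subunit A, with 125 ± 9.97 against 21.2 ± 4.38 normalized counts (2.56 ± 0.15), and *F5*, which encodes coagulation factor V. *F5* had 186 and 12 reads in all, with 3 of the 4 4T1-Sca1- libraries at the floor of 3 counts, and passed the filter on low counts through the 4T1-Sca1+ libraries. Its ratio per library size was 14.0, with an exact 95% interval of 7.80 to 27.5 for counting error only. Both are in the SCA1-positive signature that the study picked on these libraries. *F3*, which encodes tissue factor, missed the threshold narrowly (0.21 ± 0.09, adjusted p 0.0501, edgeR), and passed in 6 of 19 alternative fits, among them GC-corrected offsets (0.26), which gave 3 higher genes in this list, and the fit without 4T1-Sca1- replicate 1 (0.28). *Tmprss6*, which encodes a relative of matriptase, was too low to be tested, with 39 reads in the 4T1-Sca1+ fraction and 1 in the other, a ratio of 35.1 per library size with an exact 95% interval of 5.94 to 1422 for counting error only. It was chosen after its values were seen.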
